A study of Mus musculus with 15 samples.

Results

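The genes described here act in homologous recombination, in the Fanconi anaemia pathway and in the DNA damage checkpoint, with a few partners from mismatch repair, end joining and single-strand break repair. A list of 33 genes was matched by exact symbol to the platform annotation of the array, and each gene was represented by its brightest probe set. Probe sets were found for 32 of the 33 genes, out of 18193 genes measured in all. Xrcc2 was not analysed here, because no probe set carried it as its single symbol. Values are log2 of the deposited intensities, so a change of 1 is a doubling.

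The 15 arrays read total RNA of primary acute myeloid leukemia (AML) cells taken from leukemic spleens. Every leukemia carried NRASG12V, an oncogenic RAS allele that doxycycline switches off, together with the Mll-AF9 fusion, which stays on in all groups. Leukemia cells were injected by the tail vein into SCID/Beige mice, an immunodeficient strain that lacks B and T cells, and were left for 20 days, to over 100000 white blood cells per microlitre. The RAS-ON group holds 5 vehicle-treated arrays at 0 h. RAS-OFF arrays, 10 in all, were sampled in pairs after 48, 60, 72, 84 and 96 h of doxycycline, given by intraperitoneal injection and in the drinking water. No vehicle array was taken at a later time, so time since 0 h, doxycycline itself and loss of NRASG12V cannot be told apart. The labels do not say whether arrays of a group came from separate animals or how many independent leukemias were injected, so the spread behind each p-value may be technical.

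Homologous recombination copies the sister chromatid to mend a double-strand break. Broken ends are first resected to single strands, then BRCA2 with PALB2 and BRCA1 loads the recombinase that invades the sister strand, and helicases such as BLM dissolve the joint molecules. The Fanconi anaemia core complex attaches ubiquitin to the FANCD2-FANCI pair at interstrand crosslinks and stalled forks, and the kinases ATR and ATM, through CHK1 and CHK2, hold the cell cycle meanwhile. Many of these genes are transcribed mainly in S and G2 phase, and loss of the Fanconi pathway exhausts blood stem cells.

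The arrays had median log2 intensities of 7.23 to 7.29. The targeted gene, Nras, fell by 0.31 ± 0.09 (SE; limma adjusted p = 0.00725), from 10.94 ± 0.18 (SD, n = 5) to 10.62 ± 0.17 (SD, n = 10), and the labels do not say whether this mouse probe set reads the transgene. The RAS-ON arrays formed 2 sets, replicates 1 to 3 and replicates 4 and 5. The SD of the log2 difference between 2 arrays was 0.166 to 0.219 within them and 0.236 to 0.302 between them. RAS-OFF 96 h replicate 1 had a 3-prime minus 5-prime difference of 1.22 for the Gapdh control, a sign of RNA integrity, against 0.10 to 0.35 on the other arrays. Cell type markers also moved. All 13 erythroid markers, led by Epb42 and Car1, were called higher, with a median change of 1.42, and their summed intensity was 42828 to 54302 in RAS-ON and 104441 to 131302 in RAS-OFF arrays. Red pulp macrophage markers were called higher in 10 and lower in 1 of 12 (median 0.66), megakaryocyte markers higher in 9 of 9 (median 0.49), and stroma and endothelium markers higher in 9 and lower in 4 of 14 (median 0.39). Natural killer markers were called higher in 5 of 9 (median 0.18), T cell markers higher in 2 and lower in 1 of 8 (median 0.06), and B cell markers higher in 2 and lower in 4 of 7 (median -0.20). Of 14 markers of leukemic myeloid cells, 8 were lower, Mpo, Elane, Ctsg and Prtn3 among them. Another 2 were higher, Csf3r (0.74) and Ptprc (0.17), and 4 did not pass. The median of this list was -0.35. By mean intensity among all genes, the leukemic markers lay at percentiles 41.3 (Meis1) to 99.3 (Ptprc), the erythroid markers at 78.2 (Sptb) to 99.8 (Car2), the T cell markers at 10.5 (Cd3g) to 74.7 (Cd3d) and the B cell markers at 8.2 (Ebf1) to 76.9 (Cd22). The summed intensity of the leukemic markers was 70186 to 77034 in RAS-ON and 32124 to 46368 in RAS-OFF arrays. The part of these cell types in the changes below was not tested. In bulk RNA, fewer cells of a type and less RNA per cell cannot be told apart.

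Promoters are shown before the values, and their part in the changes was not tested. RefSeq promoters of assembly GRCm38.p6, which run from 250 bases before to 50 bases after the start site, were matched for 27 of the 32 genes. They were searched on both strands for the E2F words TTTCCCGC, TTTGGCGC, TTTCGCGC and TTTGCCGC, for the CHR word TTTGAA and for CCAAT. No word contains another. An E2F word stood in 8 of the 27 promoters (29.6%), against 2.32% of 27025 promoters of the same length. Its first base lay 209 bases upstream of the start in Bard1, 168 in Brca2, 152 in Chek2, 129 in Topbp1, 52 in Fancg and 46 in Xrcc6, and after the start in Msh6 and Clspn. CCAAT stood in 18 of 27 (66.7%, against 37.9% of all promoters), and the CHR word in 1 of 27, that of Bard1 (3.7%, against 18.1%). A match of letters is a description and not a site. The stretches below run from 220 bases before to 30 bases after the start, all on the plus strand. Brca2 (chr5:150522401-150522650), Chek2 (chr5:110839763-110840012), Clspn (chr4:126556760-126557009), Msh6 (chr17:87974830-87975079) and Topbp1 (chr9:103305107-103305356) are shown with their E2F word in capitals, as members that rose against RAS-ON, over time or both. Parp1 (chr1:180568671-180568920) is shown as the member that was called lower at every time, and holds no such word. The words did not follow the direction of change one for one. Fancg, which was lower, holds one. The matched promoters of Brca1, Palb2, Rad51ap1, Rad54l, Blm, Fanci, Chek1 and Xrcc5, which were called higher, hold none of these exact E2F words. Near matches were not counted, such as TTTGGCGC with its last letter changed at the end of the Chek1 promoter.
Brca2: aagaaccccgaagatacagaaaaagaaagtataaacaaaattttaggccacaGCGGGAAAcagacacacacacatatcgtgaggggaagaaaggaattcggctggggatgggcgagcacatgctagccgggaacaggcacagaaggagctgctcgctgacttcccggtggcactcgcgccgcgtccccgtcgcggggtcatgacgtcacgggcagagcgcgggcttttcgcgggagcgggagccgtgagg
Chek2: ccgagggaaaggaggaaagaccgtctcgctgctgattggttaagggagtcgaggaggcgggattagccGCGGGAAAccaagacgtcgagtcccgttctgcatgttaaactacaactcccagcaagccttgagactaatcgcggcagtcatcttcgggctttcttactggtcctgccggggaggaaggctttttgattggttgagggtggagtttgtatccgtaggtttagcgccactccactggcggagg
Clspn: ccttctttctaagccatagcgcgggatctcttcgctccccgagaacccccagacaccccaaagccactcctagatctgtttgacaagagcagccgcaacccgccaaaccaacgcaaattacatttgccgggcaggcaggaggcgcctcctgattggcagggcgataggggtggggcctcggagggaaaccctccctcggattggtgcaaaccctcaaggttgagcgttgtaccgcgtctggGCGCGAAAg
Msh6: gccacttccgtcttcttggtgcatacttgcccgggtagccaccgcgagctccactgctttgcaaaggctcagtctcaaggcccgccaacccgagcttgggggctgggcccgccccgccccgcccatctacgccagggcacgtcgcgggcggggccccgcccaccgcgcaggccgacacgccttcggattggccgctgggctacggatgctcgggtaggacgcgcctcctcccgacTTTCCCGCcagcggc
Topbp1: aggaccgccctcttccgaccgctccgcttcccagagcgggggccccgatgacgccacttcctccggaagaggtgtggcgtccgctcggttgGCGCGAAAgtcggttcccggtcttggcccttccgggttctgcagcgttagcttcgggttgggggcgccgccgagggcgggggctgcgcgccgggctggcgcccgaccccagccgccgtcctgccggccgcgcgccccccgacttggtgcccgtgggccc
Parp1: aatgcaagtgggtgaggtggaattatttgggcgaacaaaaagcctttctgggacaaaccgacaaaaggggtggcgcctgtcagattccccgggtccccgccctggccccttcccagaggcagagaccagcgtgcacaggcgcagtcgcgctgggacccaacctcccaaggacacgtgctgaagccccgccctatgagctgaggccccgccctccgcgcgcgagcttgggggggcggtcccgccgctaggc

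Over the mean of the 5 RAS-OFF times, 17 of the 32 genes were higher than in RAS-ON (53.1%), 6 were lower (18.8%) and 9 did not pass the test. Of all 18193 genes, 20.1% were called higher and 28.7% lower. A gene was called when its limma p, adjusted by Benjamini-Hochberg over the 18193 genes, was below 0.05. The median change of the 32 genes was 0.18 on the log2 scale, beside -0.04 for all genes. The called rises ran from 0.17 to 1.00, and 5 of them reached 0.5: Brca1, Brca2, Blm, Chek2 and Xrcc5. The called falls ran from -0.20 to -0.41. All 10 RAS-OFF arrays lay above all 5 RAS-ON arrays for 5 genes (15.6%; 9.36% of all genes) and below them for 1 gene (3.12%; 12% of all genes).

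**Figure D1:**
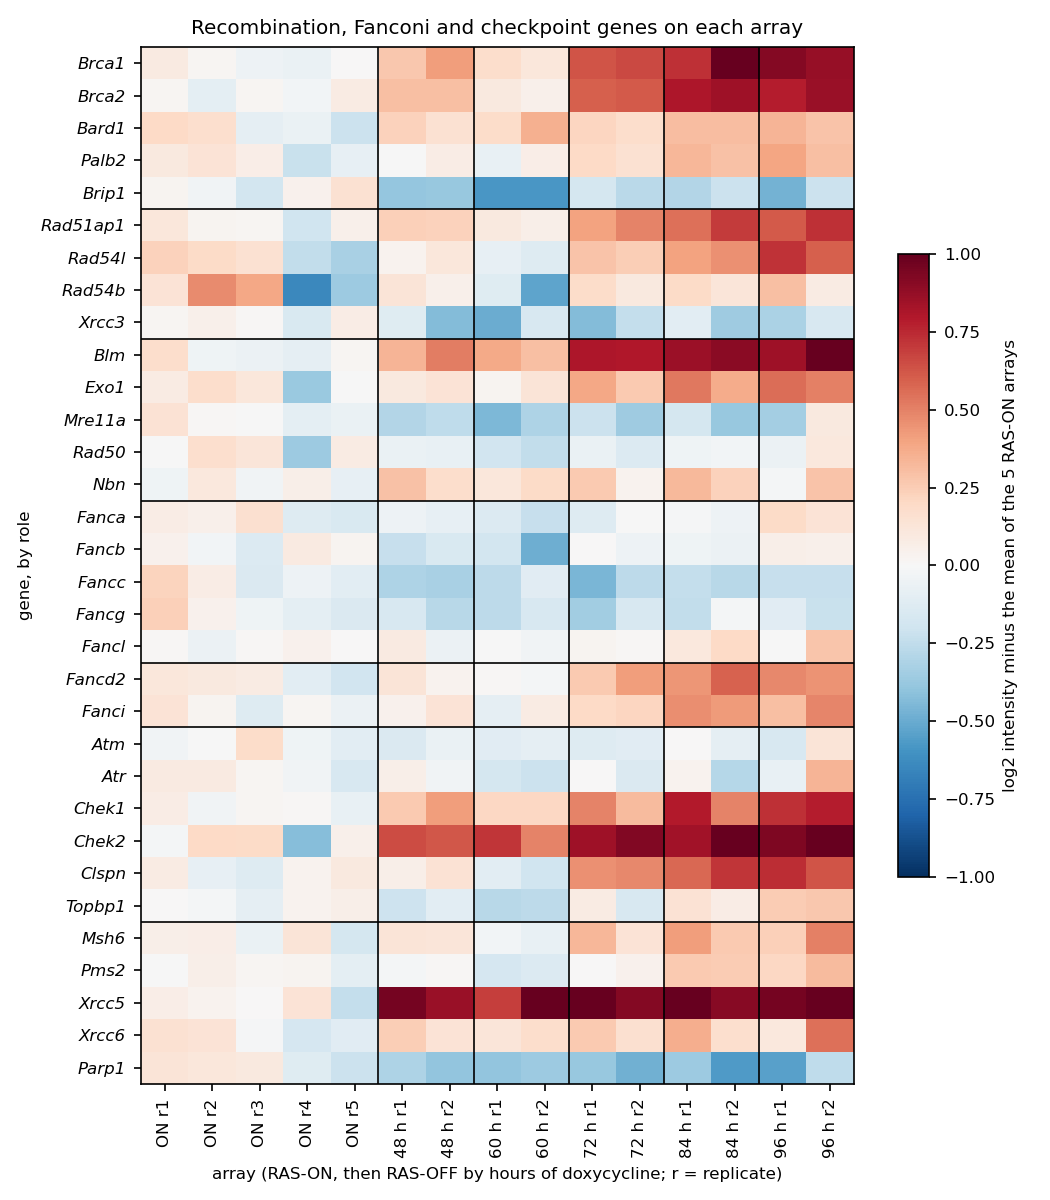
Each cell is the log2 intensity of 1 of the 32 genes (rows, grouped by role) on 1 array (columns), minus the mean of the 5 RAS-ON arrays, and colours saturate at 1. Brca1, Brca2, Blm, Chek1, Chek2 and Xrcc5 are red on all 10 RAS-OFF arrays, as are, in part faintly, Bard1, Rad51ap1, Exo1 and Xrcc6. Parp1, Brip1, Xrcc3, Fancc and Fancg are blue on all 10, in part faintly.

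**Figure D2:**
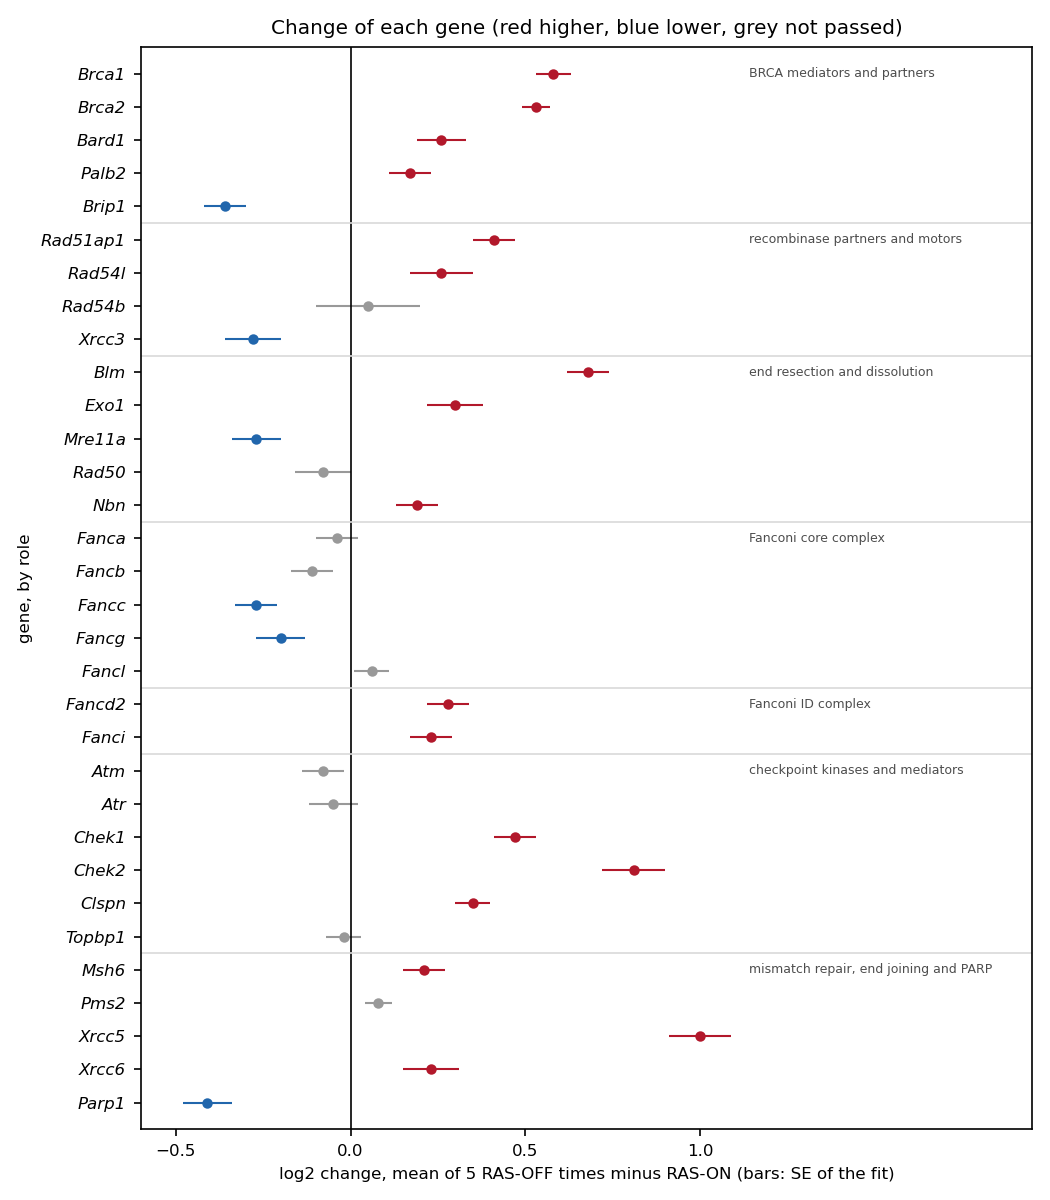
Each point is the log2 change of 1 gene, the mean of the 5 RAS-OFF times minus RAS-ON, and bars are standard errors of the fit. Red points passed the test upward (17), blue points downward (6), and grey points did not pass (9).

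Brca1 and its partners were mostly higher in RAS-OFF. Of the 5 genes of this role, 4 were higher and 1, Brip1, was lower. Brca1, whose product starts recombination and forms a ubiquitin ligase with BARD1, had log2 intensities of 10.15, 10.08, 10.01, 10 and 10.07 on the RAS-ON arrays. In RAS-OFF it had 10.33 and 10.48 at 48 h, 10.24 and 10.17 at 60 h, 10.69 and 10.72 at 72 h, 10.79 and 11.06 at 84 h, and 10.98 and 10.93 at 96 h. Every RAS-OFF array was above every RAS-ON array, with the 60 h pair closest to them. The rise was 0.58 ± 0.05 (SE; limma adjusted p = 5.05e-07), 1.49-fold, and 0.25 (adjusted p = 0.00583) for the mean of its probe sets. Brca2, which loads the recombinase onto single strands, had 9.61, 9.50, 9.61, 9.56 and 9.68 in RAS-ON. Its RAS-OFF values were 9.89 and 9.90 at 48 h, 9.69 and 9.64 at 60 h, 10.19 and 10.21 at 72 h, 10.40 and 10.44 at 84 h, and 10.38 and 10.45 at 96 h. One 60 h array fell within the RAS-ON range and the other 9 RAS-OFF arrays were above it. Brca2 rose by 0.53 ± 0.04 (SE; limma adjusted p = 1.73e-07), 1.44-fold. In both genes every array from 72 h on was higher than the 48 and 60 h arrays.

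Bard1, the partner in the BRCA1 ubiquitin ligase, rose by 0.26 ± 0.07 (SE; limma adjusted p = 0.00575), from 6.95 ± 0.18 (SD, n = 5) to 7.21 ± 0.07 (SD, n = 10). RAS-ON replicates 1 and 2, at 7.15 and 7.12, overlapped the RAS-OFF range of 7.11 to 7.30, and the change was 0.16 (adjusted p = 0.064) against RAS-ON replicates 1 to 3 alone. Palb2, which bridges BRCA1 and BRCA2, rose by 0.17 ± 0.06 (SE; limma adjusted p = 0.0299). That call was lost without RAS-ON replicate 4 (0.12, adjusted p = 0.0973), without replicate 5 (0.15, 0.0765), and, with the change at 0.16 or 0.17, without any 1 of 5 RAS-OFF arrays (48 h replicate 2, 60 h replicate 2 and replicate 1 of 72, 84 and 96 h; adjusted p from 0.0503 to 0.0567). Against RAS-ON replicates 1 to 3 alone, the change of Palb2 was 0.07 (adjusted p = 0.309). Brip1, a helicase that binds BRCA1, went the other way. It had 8.38, 8.31, 8.17, 8.40 and 8.50 in RAS-ON, then 7.97 on both 48 h arrays, 7.77 on both 60 h arrays, 8.17 and 8.08 at 72 h, 8.06 and 8.14 at 84 h, and 7.88 and 8.14 at 96 h. All RAS-OFF arrays but 1 were below the RAS-ON arrays, and the remaining one reached the lowest of them. Brip1 fell by 0.36 ± 0.06 (SE; limma adjusted p = 0.000172).

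Among the 4 partners and motors of the recombinase, 2 were higher, 1 was lower and 1 did not pass. Rad51ap1, which helps the recombinase capture its partner strand, had 10.38, 10.29, 10.29, 10.07 and 10.32 in RAS-ON. It had 10.51 and 10.50 at 48 h, 10.37 and 10.33 at 60 h, 10.67 and 10.77 at 72 h, 10.82 and 10.97 at 84 h, and 10.88 and 11.01 at 96 h. Only the 60 h pair overlapped RAS-ON, and the rise was 0.41 ± 0.06 (SE; limma adjusted p = 2.57e-05), or 0.27 (adjusted p = 0.00174) for the mean of its probe sets. Rad54l, a motor that drives strand exchange, showed how the RAS-ON arrays differed among themselves. It had 10.23, 10.19 and 10.15 on replicates 1 to 3 and 9.76 and 9.67 on replicates 4 and 5, while RAS-OFF ran from 9.87 at 60 h to 10.72 at 96 h. The rise of 0.26 ± 0.09 (SE; limma adjusted p = 0.021) was lost without RAS-ON replicate 4 (0.20, adjusted p = 0.0667) or replicate 5 (0.18, 0.0676), and was 0.07 (adjusted p = 0.282) against replicates 1 to 3 alone.

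Rad54b, a relative of RAD54L, had a change of 0.05 ± 0.15 (SE; limma adjusted p = 0.808). Its RAS-ON arrays split in the same way, 6.82, 7.16 and 7.07 against 6.04 and 6.33. The change was -0.28 (adjusted p = 0.0194) against the first set and 0.55 (adjusted p = 0.000852) against the second, so that no direction is given for it. Xrcc3, a paralog of the recombinase that stabilises its filament, fell by 0.28 ± 0.08 (SE; limma adjusted p = 0.00637), from 7.31 ± 0.09 (SD, n = 5) to 7.02 ± 0.14 (SD, n = 10). RAS-ON replicate 4 (7.15) overlapped the RAS-OFF range of 6.81 to 7.20, and the other RAS-ON arrays, at 7.32 to 7.38, lay above it. Its second probe set did not pass (0.01, adjusted p = 0.93), and the mean of the probe sets missed the threshold (-0.14, adjusted p = 0.0577), as did the comparison with RAS-ON replicates 4 and 5 alone (-0.24, adjusted p = 0.107).

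Resection and dissolution genes split, with 3 higher, 1 lower and 1 not passed of 5. Blm encodes the helicase that dissolves joint molecules and, when absent, causes Bloom syndrome. It had 10.06, 9.84, 9.83, 9.79 and 9.90 in RAS-ON. RAS-OFF values were 10.22 and 10.40 at 48 h, 10.26 and 10.19 at 60 h, 10.69 and 10.68 at 72 h, 10.74 and 10.79 at 84 h, and 10.74 and 10.96 at 96 h. The groups did not overlap, and Blm rose by 0.68 ± 0.06 (SE; limma adjusted p = 1.79e-07), 1.60-fold. Exo1, the exonuclease of long-range resection, rose by 0.30 ± 0.08 (SE; limma adjusted p = 0.00521). RAS-ON ran from 8.78 to 9.33 and RAS-OFF from 9.18 to 9.71, with 6 of 10 RAS-OFF arrays above the RAS-ON range. Its 3 probe sets disagreed: the brightest was higher, another had a change of 0.02 (adjusted p = 0.896) and the dimmest was lower by 0.29 ± 0.07 (SE; adjusted p = 0.0031). The mean of the 3 gave 0.01 (adjusted p = 0.879).

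The 3 genes of the MRN complex, which senses breaks and starts resection, did not move together. Mre11a, its nuclease, fell by 0.27 ± 0.07 (SE; limma adjusted p = 0.00623), with RAS-ON arrays at 8.90 to 9.14 and RAS-OFF arrays at 8.54 to 9.09, and both its probe sets were lower. Against RAS-ON replicates 4 and 5 alone the change was -0.19 (adjusted p = 0.155). Nbn, the subunit that recruits ATM, rose by 0.19 ± 0.06 (SE; limma adjusted p = 0.0214), with 8 of 10 RAS-OFF arrays above the RAS-ON range of 8.92 to 9.10, a call lost without RAS-ON replicate 1 (0.18, adjusted p = 0.0524) or 5 (0.17, 0.0572). Rad50, the ATPase of the complex, had a change of -0.08 ± 0.08 (SE; limma adjusted p = 0.408). RAS-ON replicate 4, at 9.53, lay below the other RAS-ON arrays (9.89 to 10.06), and without it the change was -0.17 (adjusted p = 0.0163).

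By the brightest probe sets, 0 of 5 measured genes of the Fanconi core complex were higher (20.1% of all genes), 2 were lower (40%; 28.7% of all genes) and 3 did not pass. Fancc, a core subunit, fell by 0.27 ± 0.06 (SE; limma adjusted p = 0.00266), from 8.72 ± 0.15 (SD, n = 5) to 8.45 ± 0.09 (SD, n = 10). Of its 3 probe sets, 1 was lower, 1 higher (0.24 ± 0.07 SE, adjusted p = 0.0098) and 1 did not pass, and their mean gave -0.01 (adjusted p = 0.815). Fancg, also a core subunit, fell by 0.20 ± 0.07 (SE; limma adjusted p = 0.0266), with 8 of 10 RAS-OFF arrays below the RAS-ON range of 8.79 to 9.17. The Fancg call was lost without RAS-ON replicate 1 (-0.14, adjusted p = 0.093) or 2 (-0.19, 0.0605), without 72 h replicate 1 (-0.18, 0.0537) or 84 h replicate 1 (-0.18, 0.0532), and against RAS-ON replicates 4 and 5 alone (-0.08, 0.472). Fanca had a change of -0.04 ± 0.06 (SE; limma adjusted p = 0.633). Fancb had a change of -0.11 ± 0.06 (SE; limma adjusted p = 0.126), which became a call without 60 h replicate 1 (-0.14, adjusted p = 0.0388). Fancl, the ubiquitin ligase of the complex, had a change of 0.06 ± 0.05 (SE; limma adjusted p = 0.365), with RAS-ON at 10.02 to 10.13 and RAS-OFF at 10.03 to 10.36. Its other probe set, a dim one, was higher by 0.22 ± 0.06 (SE; adjusted p = 0.0134), and the mean of both was called higher (0.14, adjusted p = 0.0274).

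The substrates of that ligase, Fancd2 and Fanci, were both higher. Fancd2 had 8.84, 8.83, 8.81, 8.62 and 8.54 in RAS-ON. It had 8.86 and 8.76 at 48 h, 8.73 and 8.70 at 60 h, 8.98 and 9.14 at 72 h, 9.17 and 9.31 at 84 h, and 9.21 and 9.18 at 96 h. The 48 and 60 h arrays lay in or next to the RAS-ON range and the later ones above it, and the rise over all times was 0.28 ± 0.06 (SE; limma adjusted p = 0.00157), or 0.13 (adjusted p = 0.0124) for the mean of its probe sets. Fanci rose by 0.23 ± 0.06 (SE; limma adjusted p = 0.00403), with RAS-ON arrays at 8.98 to 9.25 and the 84 and 96 h arrays at 9.41 to 9.60. The difference between core and substrate genes was not itself tested.

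In the checkpoint the effector kinases were higher and the brightest probe sets of the apical kinases did not pass, a difference between them that was not tested. Of 6 genes, 3 were higher and 3 did not pass. Chek1, the effector of ATR, had 9.12, 9.01, 9.06, 9.05 and 8.97 in RAS-ON. RAS-OFF values were 9.30 and 9.46 at 48 h, 9.24 and 9.25 at 60 h, 9.53 and 9.35 at 72 h, 9.83 and 9.54 at 84 h, and 9.77 and 9.83 at 96 h. No RAS-OFF array reached down to RAS-ON, and the rise was 0.47 ± 0.06 (SE; limma adjusted p = 8.82e-06). Of its 5 probe sets, 4 were called higher, by up to 1.01, and 1, a dim one, did not pass. Chek2, the effector of ATM, had 9.16, 9.38, 9.37, 8.75 and 9.23 in RAS-ON, with replicate 4 the lowest. It had 9.83 and 9.80 at 48 h, 9.90 and 9.67 at 60 h, 10.02 and 10.11 at 72 h, 10.02 and 10.25 at 84 h, and 10.12 and 10.21 at 96 h. The groups did not overlap, and Chek2 rose by 0.81 ± 0.09 (SE; limma adjusted p = 3.3e-06), 1.76-fold.

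Clspn, the adaptor through which ATR reaches CHK1, had 10.78, 10.62, 10.57, 10.73 and 10.79 in RAS-ON. It had 10.75 and 10.84 at 48 h, 10.60 and 10.50 at 60 h, 11.16 and 11.18 at 72 h, 11.27 and 11.41 at 84 h, and 11.44 and 11.33 at 96 h. The 60 h arrays were near or below the lowest RAS-ON array and all arrays from 72 h were above it, for a rise of 0.35 ± 0.05 (SE; limma adjusted p = 7.34e-05). With RAS-OFF taken as a single group, so that the time course counts as spread, the adjusted p was 0.0519. Topbp1, which activates ATR, had a change of -0.02 ± 0.05 (SE; limma adjusted p = 0.778) over all times, while its early and late arrays lay on opposite sides of RAS-ON. It had 11.00, 10.97, 10.91, 11.03 and 11.06 in RAS-ON, 10.72 and 10.73 at 60 h (a fall of 0.27, adjusted p = 0.0178) and 11.24 and 11.26 at 96 h (a rise of 0.26, adjusted p = 0.016). Atm had a change of -0.08 ± 0.06 (SE; limma adjusted p = 0.314) and Atr one of -0.05 ± 0.07 (SE; limma adjusted p = 0.607). The second probe set of Atm was lower by 0.19 ± 0.07 (SE; adjusted p = 0.0335), and the mean of both did not pass (-0.14, adjusted p = 0.0706). By their brightest probe sets neither Atm nor Atr passed at any single time, with values of -0.12 to -0.02 for Atm and -0.20 to 0.13 for Atr.

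**Figure D3:**
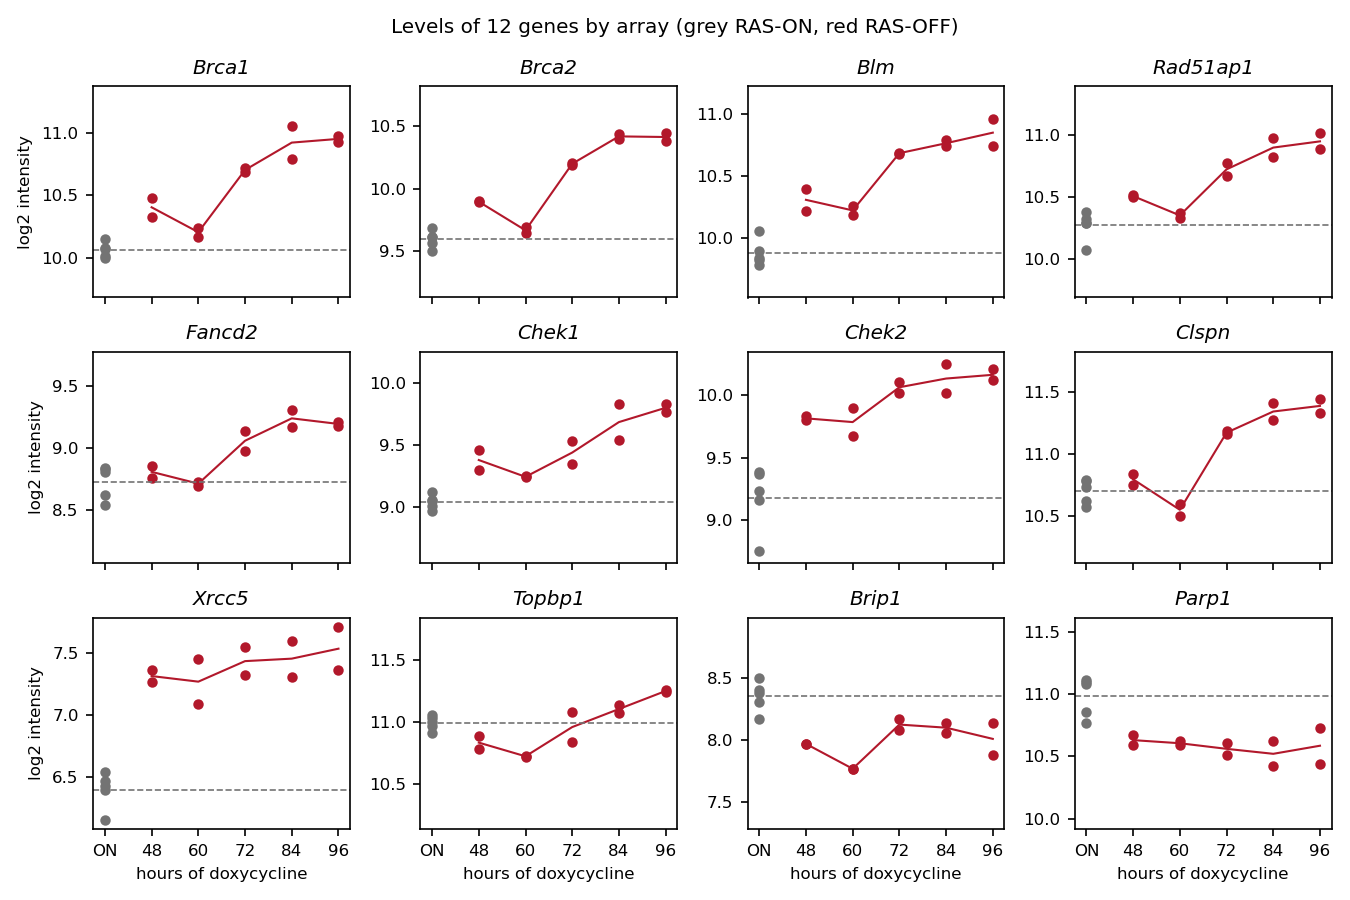
Each panel shows the log2 intensity of 1 of 12 genes on each array against hours of doxycycline (ON is RAS-ON at 0 h, the dashed line its mean, and the red line joins the means of 2 arrays), and all panels span the same log2 range. Brca1, Brca2, Rad51ap1 and Clspn have their lowest RAS-OFF mean at 60 h and are higher from 72 h, Topbp1 crosses the RAS-ON mean, and Parp1 stays below RAS-ON.

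The remaining 5 genes belong to neighbouring repair pathways, and 3 were higher, 1 was lower and 1 did not pass. Xrcc5, which encodes the larger subunit of the Ku end-joining clamp, had 6.47, 6.43, 6.40, 6.54 and 6.16 in RAS-ON. It had 7.36 and 7.27 at 48 h, 7.09 and 7.45 at 60 h, 7.55 and 7.32 at 72 h, 7.60 and 7.31 at 84 h, and 7.36 and 7.71 at 96 h. The groups were separated by more than the whole spread of RAS-ON, and the rise of 1.00 ± 0.09 (SE; limma adjusted p = 2.09e-07) was the largest of the 32. It rests on 1 dim probe set, whose mean lay at percentile 33.1 of all genes. Xrcc6, the other Ku subunit, rose by 0.23 ± 0.08 (SE; limma adjusted p = 0.0239), with RAS-ON arrays at 8.86 to 9.17 and RAS-OFF arrays at 9.13 to 9.57, and both its probe sets were higher. The Xrcc6 call was lost without RAS-ON replicate 4 (0.19, adjusted p = 0.0703) or 5 (0.20, 0.0642), and against replicates 1 to 3 alone (0.14, 0.208).

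Parp1, the sensor of single-strand breaks, was the member called lower at every time. It had 11.11, 11.10, 11.08, 10.86 and 10.77 in RAS-ON. It had 10.67 and 10.59 at 48 h, 10.59 and 10.62 at 60 h, 10.61 and 10.51 at 72 h, 10.62 and 10.42 at 84 h, and 10.44 and 10.73 at 96 h. All RAS-OFF arrays lay below all RAS-ON arrays, though RAS-ON replicates 4 and 5 were nearest, and Parp1 fell by 0.41 ± 0.07 (SE; limma adjusted p = 0.00025). Of its 4 probe sets, 3 were lower, by 0.35 to 0.55. Msh6, a mismatch recognition subunit, rose by 0.21 ± 0.06 (SE; limma adjusted p = 0.0166), with RAS-ON arrays at 9.75 to 10.05 and RAS-OFF arrays at 9.85 to 10.43, and the call was lost without RAS-ON replicate 5 (0.16, adjusted p = 0.0559). Pms2, a mismatch repair endonuclease subunit, had a change of 0.08 ± 0.04 (SE; limma adjusted p = 0.166), although it passed at 84 h (0.26, adjusted p = 0.00736) and at 96 h (0.26, 0.00705).

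More of the genes were called higher at 72, 84 and 96 h than at 48 and 60 h. At 48 h, 6 of the 32 genes were higher (18.8%; 13.7% of all genes) and 3 lower (9.38%; 13.7% of all genes), with a median of 0.08. At 60 h, 3 were higher (9.38%; 11.5% of all genes) and 6 lower (18.8%; 14.2% of all genes), with a median of -0.07. At 72 h, 9 were higher (28.1%; 13.4% of all genes) and 3 lower (9.38%; 18.3% of all genes), with a median of 0.16. By 84 h, 17 were higher (53.1%; 15% of all genes) and 3 lower (9.38%; 21.8% of all genes), with a median of 0.27. By 96 h, 18 were higher (56.2%; 16.7% of all genes) and 2 lower (6.25%; 20.9% of all genes), with a median of 0.28. The share called higher was thus near that of all genes at 48 and 60 h and above it from 72 h. The comparisons share the 5 RAS-ON arrays.

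Blm, Chek2 and Xrcc5 were higher at all 5 times and Parp1 was lower at all 5. Brca1, Brca2 and Chek1 passed at every time but 60 h, where their changes were 0.14, 0.08 and 0.21. Rad51ap1, Fancd2 and Clspn passed from 72 h, and Palb2, Rad54l, Exo1, Fanci, Msh6, Pms2 and Bard1 at 84 and 96 h. Xrcc6 passed at 96 h and Nbn at 84 h. The lower calls at 60 h were Brip1, Xrcc3, Mre11a, Fancb, Topbp1 and Parp1. Several of these counts rest on single arrays, since each time has 2. The 48 h counts were 3 higher without 48 h replicate 2 and 0 lower without either 48 h array. At 60 h, 1 gene was higher without replicate 1 and 2 were lower without either array, and at 72 h 1 was lower without either array. At 84 h, 10 were higher without replicate 1. The 84 h count of lower genes was 0 without replicate 2 of that time, and 1 without any one of RAS-ON replicates 1, 2 and 4, the 48, 60 and 72 h arrays, or 84 h replicate 1. At 96 h, 0 were lower without replicate 1.

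The slope of the 5 RAS-OFF means, which uses no RAS-ON array, was called rising for 15 of the 32 genes (46.9%; 5% of all genes) and falling for 0 (8.75% of all genes). The limma test gave 0.20 ± 0.02 (SE) log2 units per 12 h for Clspn (adjusted p = 0.000113), 0.18 ± 0.02 for Brca1 (0.000181) and 0.18 ± 0.02 for Brca2 (6.39e-05). Rad54l followed at 0.17, Blm at 0.16, Rad51ap1 at 0.14, Fancd2 and Chek1 at 0.13, Exo1 and Topbp1 at 0.12, and Fanci at 0.11. Palb2, Msh6 and Pms2 had slopes of 0.09 and Fancb one of 0.08. The slope of Chek2, 0.10 ± 0.04 (SE; limma adjusted p = 0.0795), and that of Xrcc5, 0.06 ± 0.04 (SE; limma adjusted p = 0.28), did not pass, and both genes were already high at 48 h. With the 96 h arrays left out 8 slopes were called, and 5 without replicate 1 of 48, 84 and 96 h, which left those times with 1 array each. Without the 96 h arrays the slopes of Palb2, Rad54l, Exo1, Fancb, Chek1, Topbp1 and Msh6 lost the call. With the mean of probe sets 10 slopes were called. Those of Clspn (0.08, adjusted p = 0.238), Brca1 (0.06, 0.132), Exo1 (0.03, 0.368), Fanci (0.06, 0.101) and Pms2 (0.05, 0.0678) then lost the call. Some slope calls rested on single arrays. That of Msh6 was lost without either 48 h or either 60 h array, 84 h replicate 1 or 96 h replicate 2 (adjusted p from 0.0625 to 0.205), and that of Fancb without 60 h replicate 2 or any 1 of the 48, 72, 84 and 96 h arrays (0.0514 to 0.197). The Palb2 call was lost without replicate 1 of 48 h (0.131), 60 h (0.053) or 96 h (0.109), that of Exo1 without either 48 h or either 96 h array (0.0551 to 0.108), and that of Fanci without 48 h replicate 1 (0.0618). The slopes of Brca2, Rad51ap1 and Blm passed in each of the 24 alternatives run for them. Brca2 and Blm have 1 probe set each, so averaging probe sets could not change their slopes.

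The time course was not a straight line. The 60 h mean was the lowest of the RAS-OFF means in 25 of the 32 genes (78.1%; 18.5% of all genes), among them all 15 with a called slope. Those 15 were picked by a rising slope over the same means, which favours a low early mean. It was below the 48 h mean in 28 of 32 (87.5%; 51.7% of all genes). The 84 and 96 h means were both above the 48 and 60 h means in 27 of 32 (84.4%; 24.9% of all genes), and the highest mean was at 96 h in 21 (65.6%; 27.5% of all genes). The 60 h pair was also the most alike of the RAS-OFF pairs over all genes, with an SD of the log2 difference of 0.150. Each time is 2 arrays, so a time and the arrays that stand for it cannot be told apart.

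**Figure D4:**
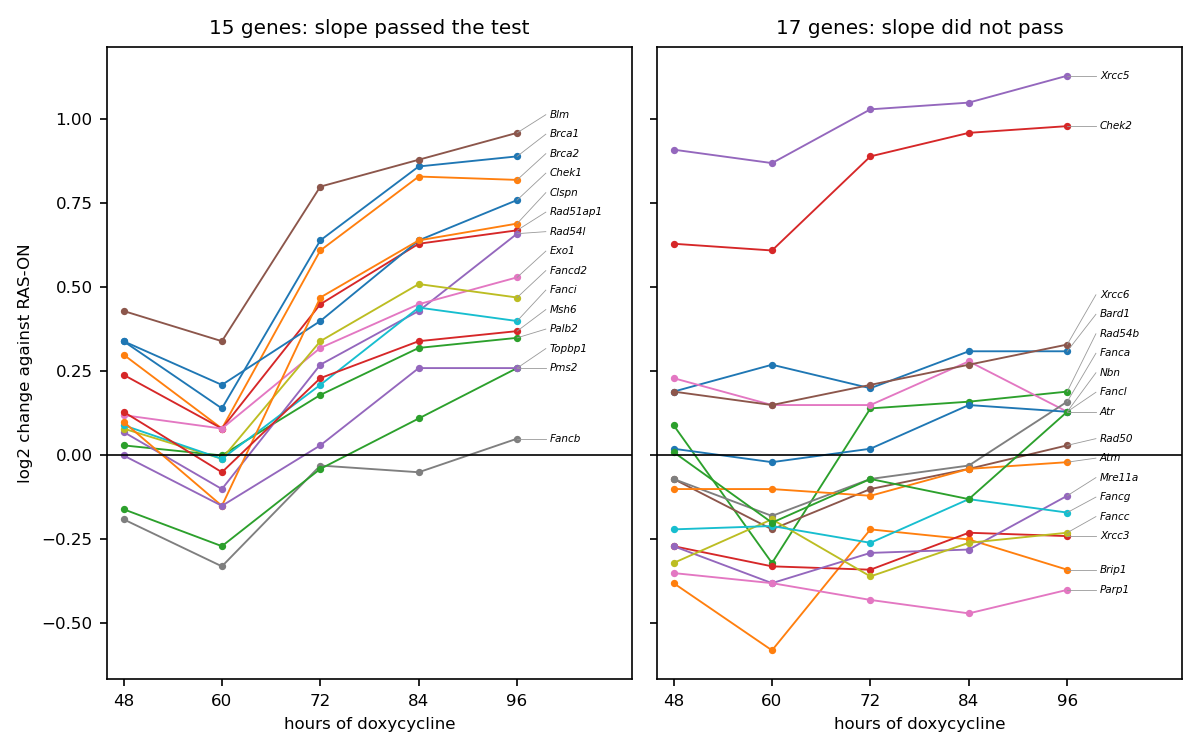
Lines give the log2 change of each gene against RAS-ON at each time, for the 15 genes whose slope passed the test (left) and the 17 whose slope did not (right). On the left every line has its lowest point at 60 h and is higher at 96 h than at 48 h, and on the right Xrcc5 and Chek2 are high from 48 h while Parp1 stays between -0.35 and -0.47. The left genes were picked by a rising slope over these means, so late values above early ones are in part set by that choice.

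An E2F word stood in 4 of the 13 matched promoters of genes with a called slope (30.8%) and in 4 of the 14 others (28.6%), a difference that was not tested. Of the 6 sequences shown, those of Brca2, Clspn, Msh6 and Topbp1 belong to genes with a called slope, and that of Chek2 to a gene that was high throughout. Parp1, with no E2F word, had a slope of -0.02 ± 0.03 (SE; limma adjusted p = 0.757).

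Other genes of the same pathways gave smaller medians than the 32. Of 27 other homologous recombination genes, 9 were higher (33.3%; 20.1% of all genes) and 6 lower (22.2%; 28.7% of all genes), with a median of 0.02. Wrn, a helicase related to BLM, rose by 1.26 ± 0.09 (SE; limma adjusted p = 1.87e-08), from 8.78 ± 0.13 (SD, n = 5) to 10.04 ± 0.30 (SD, n = 10). Gen1, a resolvase of joint molecules, rose by 0.59, and Rad52 by 0.51. Top3a, the topoisomerase that works with BLM, fell by 0.66 ± 0.06 (SE; limma adjusted p = 5.68e-07), from 8.83 ± 0.11 (SD, n = 5) to 8.17 ± 0.10 (SD, n = 10), so that 2 partners in dissolution moved in opposite directions.

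Of 15 other Fanconi genes, 5 were higher (33.3%) and 4 lower (26.7%), with a median of 0.05. Ube2t, the ubiquitin-conjugating enzyme that serves FANCL, rose by 0.51, and Rev3l, a subunit of translesion polymerase zeta, by 0.32. Faap20, a core complex partner, fell by 0.39 and Mad2l2, a partner of REV3L, by 0.32. Of 23 other checkpoint genes, 7 were higher (30.4%) and 6 lower (26.1%), with a median of 0.05. Cdc25b, a phosphatase that drives entry into mitosis, rose by 1.15 ± 0.07 (SE; limma adjusted p = 8.15e-09), Ppm1d, a phosphatase that ends the checkpoint, by 0.65, and Mdc1, a scaffold at breaks, by 0.54. Mapkapk2, a kinase downstream of p38 signalling, fell by 1.26 ± 0.10 (SE; limma adjusted p = 7.65e-08).

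Neighbouring repair pathways gave mixed counts, to be read against the same 20.1% higher and 28.7% lower of all genes. Of 3 other mismatch repair genes 2 were higher, Mlh3 by 0.19 and Msh3 by 0.14, with a median of 0.14. Of 9 other end joining genes, 2 were higher (22.2%) and 3 lower (33.3%), with a median of -0.02. Aplf, a factor that binds Ku, rose by 0.99 and Prkdc, the Ku-bound kinase, by 0.48, while the polymerase gene Poll fell by 0.55 and Paxx by 0.37. Of 17 other single-strand break and base excision repair genes, 4 were higher (23.5%) and 6 lower (35.3%), with a median of -0.13. The glycosylase gene Ogg1 fell by 0.70, Aptx by 0.69, the endonuclease gene Apex1 by 0.55 and Neil1 by 0.53. Parp1 fell beside them.

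Replication and mitosis genes were also mostly higher. The replication list holds MCM and origin genes together with clamp, clamp loader, polymerase, primase and nucleotide synthesis genes. Of its 38 genes, 25 were higher (65.8%) and 3 lower (7.89%), with a median of 0.21. A called rising slope was found in 26 (68.4%; 5% of all genes). Orc5 rose by 0.79, Cdc6 and Orc1 by 0.77 each, and Tyms, the thymidylate synthase gene, by 0.65. Of 22 mitosis genes, 13 were higher (59.1%) and 2 lower (9.09%), with a median of 0.20, and 13 had a called rising slope (59.1%), with Nusap1 up by 0.66 and Mki67, Cenpf and Ube2c by 0.58 each. Of 17 genes of the E2F and RB families, 7 were higher (41.2%) and 4 lower (23.5%), with a median of 0.00. Tfdp2, an E2F partner, rose by 1.34, Rb1 by 0.87, E2f2 by 0.82 and Lin54 by 0.51. The 4 called falls were E2f1, by 0.26, and E2f5, Rbl2 and Foxm1, by 0.32 each. The replication and mitosis lists had medians of -0.04 and -0.01 at 60 h and of 0.40 and 0.31 at 96 h. Whether the 32 genes changed beyond cell cycle genes was not tested.

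The marker lists are given beside the 32 genes, and their part in the changes was not tested. Per array, the median of the 32 genes relative to RAS-ON was -0.078 to 0.083 in RAS-ON and -0.088 to 0.317 in RAS-OFF arrays, with 6 of 10 RAS-OFF arrays above the RAS-ON range and 2 below it. The erythroid median was 1.262 to 1.762 on all RAS-OFF arrays. The erythroid markers had median changes of 1.33, 1.32, 1.53, 1.58 and 1.45 at 48, 60, 72, 84 and 96 h. The 32 genes had medians of 0.08, -0.07, 0.16, 0.27 and 0.28 at these times. Of the 13 erythroid slopes, 3 were called rising (23.1%; 5% of all genes) and 0 falling (8.75% of all genes). The leukemic myeloid markers had a median change of -0.17 at 48 h and -0.98 at 96 h, and 8 of 14 had a called falling slope (57.1%; 8.75% of all genes). All 10 RAS-OFF arrays were below the RAS-ON arrays in that list's median.

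**Figure D5:**
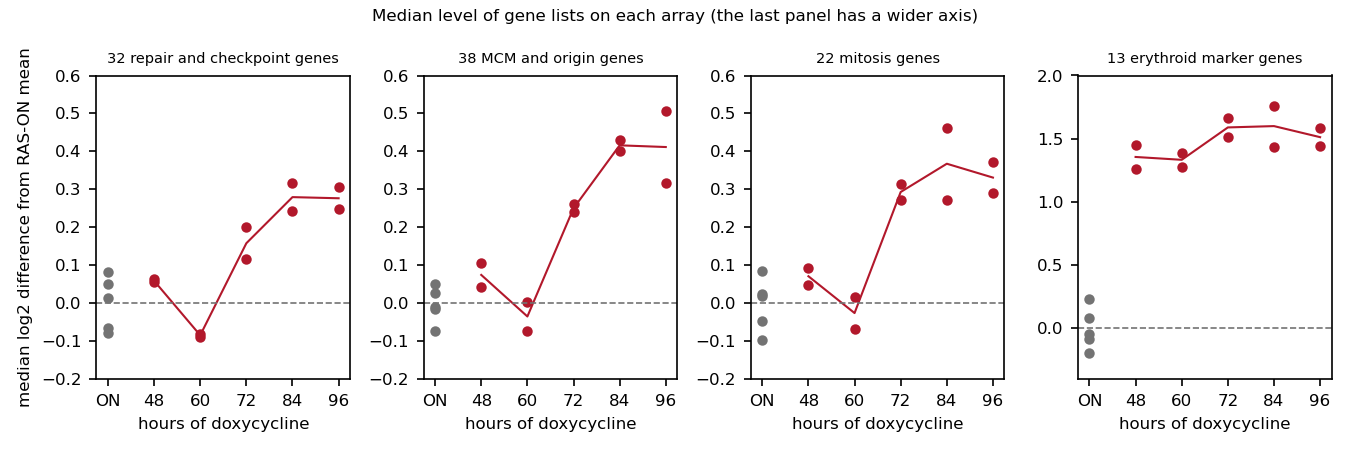
Points are the median log2 difference from the RAS-ON mean over a list of genes on each array (grey RAS-ON, red RAS-OFF, lines join the means of 2 arrays). The lists are the 32 genes, 38 replication genes (titled MCM and origin genes), 22 mitosis genes and 13 erythroid markers, the last on a wider axis. The first 3 lists lie near 0 at 48 and 60 h and above it from 72 h, and the erythroid markers are above 1.2 at every RAS-OFF time.

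The choice of probe set mattered for a few genes. Of the 71 probe sets of the 32 genes, tested among 34945, 29 were higher, 12 lower and 30 did not pass. The shares called among all 34945 are not given here, so these counts are a description alone. Among 22 genes with several probe sets, all were called the same way in 3 (Rad54l, Mre11a and Xrcc6), and 2, Exo1 and Fancc, had probe sets called in both directions. Atr, whose brightest probe set did not pass, had a second one that was lower by 0.37 ± 0.09 (SE; limma adjusted p = 0.00572) and another at 0.05 (adjusted p = 0.85). Brca1 had 4 probe sets, of which the brightest 2 were higher (0.58 and 0.25) and the other two did not pass.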

How the data were processed

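Total RNA was amplified, labelled with biotin and hybridised to Affymetrix mouse genome arrays, per the labels' protocols. The deposited values are linear intensities. Per the submitters' processing notes the authors used RMA, a method that removes background, equalises array distributions and joins the probes of a set, so a shift shared by most genes would not show. Its version is not given in the sources used here. All 15 value columns were used.

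The log2 of each intensity was tested with limma 3.58.1 in R 4.3.3 over 18193 genes (brightest of the probe sets with 1 symbol), with 1 mean per group, default eBayes, two-sided tests and Benjamini-Hochberg adjustment over all genes (threshold 0.05). Tested were the mean over the 5 RAS-OFF times against RAS-ON, each time against RAS-ON, and the slope over RAS-OFF times (least squares, per 12 h). SDs over 10 RAS-OFF arrays include differences between times. The number of arrays limits the precision.

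All measured members are named. Of each other list, up to 4 called genes with the largest change are named, with the 4 called falls of the E2F and RB list besides. Nras is named as the targeted gene, and marker genes are named as examples. Genes, lists and tests were chosen with earlier results of these data known, so list counts are a description. Alternatives were the mean of probe sets, a filter on the dimmest 40% of genes, equal array medians, trended and robust eBayes, array weights, a replicate block, 2 groups only, 3 arrays left out, parts of the RAS-ON group, times left out and each array left out in turn.

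The code was tested on simulated data with known changes. A change of 0.5 was recovered in 88% of genes over all times and in 59% to 63% at single times. A slope of 0.1 per 12 h was recovered in 30% and one of 0.25 in 96%. Small changes and slopes can thus be missed.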

Additional observations from a re-analysis of the deposited data

Results flagged for a closer look

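In Xrcc3, RAS-ON replicate 4 stood apart from its group: it had a log2 intensity of 7.15 against 7.32 to 7.38 on the other RAS-ON arrays, a gap of 0.738 of the group's whole range. Chance gives such a gap in about 1 in 20 groups, and 32 genes were looked at.

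The change against RAS-ON differed between RAS-OFF times in 15 genes, by limma's test of the slope over the times. The slopes per 12 h were 0.2 for Clspn, 0.18 for Brca1 and Brca2, 0.17 for Rad54l, 0.16 for Blm, 0.14 for Rad51ap1, 0.13 for Fancd2 and Chek1, 0.12 for Exo1 and Topbp1, 0.11 for Fanci, 0.09 for Palb2, Msh6 and Pms2, and 0.08 for Fancb. RNA integrity of RAS-OFF 96 h replicate 1, with a Gapdh 3-prime minus 5-prime difference of 1.22, moves with the last of these times. Without that array the slopes of Palb2, Exo1 and Fancb lost the call (adjusted p = 0.109, 0.0914 and 0.116), and the other 12 kept it.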

How the results depend on the processing

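Brca1, Brca2, Brip1, Rad51ap1, Blm, Chek1, Chek2, Xrcc5 and Parp1 kept direction and call against RAS-ON in every alternative run, as Atm and Pms2 kept theirs of no call. Brca2, Brip1, Blm, Chek2 and Xrcc5 have 1 probe set each, so averaging probe sets could not change their values. Deviations of the replicate 1 arrays from their group means correlated at -0.23 to 0.22 across groups, over 0.1 in 3 of 15 pairs of groups. These values cannot exclude that replicate numbers pair arrays at some times. With the replicate block, 8 genes were higher over all times (Bard1, Palb2, Rad54l, Exo1, Nbn, Fancd2, Fanci, Msh6 and Xrcc6 lost the call, with adjusted p from 0.0766 to 0.548) and 4 lower at 96 h, and Rad54b was at -0.26. Averaging probe sets gave 4 lower over all times, 3 lower at 60 h, 10 rising slopes, a call for Fancl (0.14) and Topbp1 at 0.05. Equal array medians gave 5 lower at 48 h, 1 lower at 84 h and Topbp1 at 0.00. Array weights gave 6 lower at 72 h and Rad54b at -0.04. Without replicate 1 of 48, 84 and 96 h, 0 were lower at 48 h, 10 higher at 84 h, 0 lower at 96 h, and 5 slopes rose. Without the 96 h arrays 8 slopes rose. Against RAS-ON replicates 1 to 3 alone, 10 were lower at 60 h and 5 at 72 h, with Rad54b at -0.28 and Topbp1 at 0.01. Over all times, Bard1, Palb2 (0.07, adjusted p = 0.309), Rad54l, Nbn (0.18, 0.0665) and Xrcc6 (0.14, 0.208) then lost the call. Rad50 gained a lower call (-0.17, adjusted p = 0.0268). Nbn (0.20, adjusted p = 0.0926) and Msh6 (0.23, 0.0657) lost the call against replicates 4 and 5 alone. Against replicates 4 and 5 alone, 3 were lower over all times, 10 higher and 1 lower at 48 h, 3 lower at 60 h, 14 higher at 72 h and 1 lower at 96 h, with Rad50 at 0.06, Fanca at 0.11 and Atr at 0.05. With 1 array left out in turn, the counts ran from 12 to 17 higher and 5 to 7 lower over all times, 3 to 7 and 0 to 4 at 48 h, 1 to 4 and 2 to 7 at 60 h, 8 to 10 and 1 to 4 at 72 h, 10 to 18 and 0 to 3 at 84 h, 12 to 18 and 0 to 3 at 96 h, and 10 to 16 rising slopes. The same runs gave Topbp1 -0.04 to 0.00, Rad54b -0.11 to 0.17 and Fanca -0.08 to 0.00. A time left with 1 array takes its spread from the rest. The share of all genes called under each alternative is not given here, so these counts show only how far the calls held. The causes were not tested.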
